A study of Homo sapiens with 29 samples.

Results

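The CDK inhibitors and D-type cyclins examined here were 10 genes chosen by name: the INK4 inhibitors CDKN2B, CDKN2C and CDKN2D, the CIP/KIP inhibitors CDKN1A, CDKN1B and CDKN1C, the cyclins CCND1, CCND2 and CCND3, and YPEL3, a small growth-restraining protein of the Yippee family. They were taken from 35579 genes measured by poly(A) RNA-seq in PC9, a lung adenocarcinoma line with a mutant EGFR whose growth depends on EGFR signaling. The levels are in TPM, a scale that divides each transcript's abundance by its length and by the library total, summed here from transcripts to genes. The question addressed was how these genes moved when EGFR was inhibited by erlotinib (E), and when the receptor AXL was activated as well by the antibody AF154 in the presence of erlotinib (EA).

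The 29 libraries came from 10 lines: parental PC9 with endogenous AXL (PAR), the AXL knockout (KO), and KO cells transduced by lentivirus with AXL as the wild type (WT), as a kinase-dead form (KD) or with Y634F, Y643F, Y698F, Y726F, Y750F or Y821F. Each line was left untreated, treated with E (1 μM) or treated with EA (1 μM E with 300 ng/mL AF154), and the RNA was taken after 24 h. EA was not analysed for KO, so there were 10 untreated, 10 E and 9 EA libraries, 1 per line and treatment. All lines share the EGFR-mutant PC9 background, and the 8 transduced lines also share the AXL knockout. The paper reports that only a minority of the cells in the transduced lines expressed AXL, and that AXL expression varied between these lines. The line was therefore the replicate, and p-values measure how alike the lines responded, not the spread between cultures of 1 line.

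All libraries had high epithelial transcripts, with EPCAM at 286 to 439 TPM and KRT7 at 3164 to 6468 TPM. Of the 4 lung lineage markers, NKX2-1, SFTPB and SFTPC were at 0 or below 2 TPM in all 29 libraries and NAPSA was at 0.585 to 5.32 TPM, and CD3E was at 0 in all of them, while CD68 (27.8 to 68.1 TPM) and COL1A1 (15.3 to 70.9 TPM) were measurable. The 6 blood, fibroblast and endothelial markers other than CD68 and COL1A1 stayed below 10 TPM, and the summed level of the whole list of 8 was 67.6 to 101 TPM in untreated, 84.0 to 98.3 TPM in E and 78.7 to 109.6 TPM in EA libraries. The KO libraries had the least AXL transcript (92.4 TPM without drug, 79.3 TPM with E), and the others had 217 to 852 TPM. Mitochondrial transcripts took 11.7% to 14.8% of TPM in untreated libraries. They took 12.7% to 14.7% with E apart from PAR at 17.8%, and 13.3% to 17.9% with EA, highest in Y821F. The number of reads per library is unknown, so TPM values carry no counting interval.

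D-type cyclins bind CDK4 and CDK6 and start the phosphorylation of the retinoblastoma protein, which releases E2F factors and lets cells enter S phase. INK4 proteins bind CDK4 and CDK6 directly, whereas CIP/KIP proteins bind cyclin-CDK complexes and mainly restrain CDK2. Growth factor receptors raise D-type cyclins through the ERK and PI3K pathways, and the same pathways hold down several of the inhibitors.

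CDKN2B and YPEL3 rose most with E. The GENCODE 29 annotation (GRCh38) places CDKN2B, which encodes the INK4 inhibitor p15, at chr9:22002903-22009363 on the minus strand, and YPEL3 at chr16:30092314-30096915 on the minus strand. CDKN1A, the gene of p21, at chr6:36676460-36687339 on the plus strand, was an inhibitor whose level fell. RefSeq promoter windows (GRCh38.p14) were found for 7 of the 10 members, and those of these 3 genes are shown 5′ to 3′ as the member pair that rose most and a CIP/KIP contrast. Each stretch ends at the base before the start of the gene's leading GENCODE transcript, and capitals mark the GC box, GGGCGG or its reverse complement CCGCCC. The stretches are chr9:22009364-22009555 (minus strand, 192 bases), chr16:30096245-30096463 (minus strand, 219 bases) and chr6:36678464-36678657 (plus strand, 194 bases).
CDKN2B: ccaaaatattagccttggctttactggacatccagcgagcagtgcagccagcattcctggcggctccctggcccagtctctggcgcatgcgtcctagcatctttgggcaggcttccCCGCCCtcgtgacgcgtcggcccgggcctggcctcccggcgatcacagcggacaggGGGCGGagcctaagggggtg
YPEL3: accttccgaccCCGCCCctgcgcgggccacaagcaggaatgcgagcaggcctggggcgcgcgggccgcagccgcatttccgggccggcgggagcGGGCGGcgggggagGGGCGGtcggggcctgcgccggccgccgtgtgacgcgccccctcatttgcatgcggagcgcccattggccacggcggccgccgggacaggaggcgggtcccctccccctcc
CDKN1A: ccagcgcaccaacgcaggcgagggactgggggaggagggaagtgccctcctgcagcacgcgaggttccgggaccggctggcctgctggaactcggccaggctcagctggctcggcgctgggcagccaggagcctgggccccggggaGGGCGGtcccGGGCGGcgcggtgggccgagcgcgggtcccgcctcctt

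In the 250 bases before the RefSeq start, the GC box occurred 2 times in CDKN2B, 3 times in YPEL3 and 4 times in CDKN1A, on either strand. Only 2 of the 4 in CDKN1A lay within the stretch shown, which ends earlier. At least 1 was held by 42.6% of 35116 promoter windows of that length. The windows of CDKN2B, YPEL3 and CDKN1A were 66.4%, 79.6% and 76.4% GC, against a median of 58.0% for all windows, so that share is not a like background. It was also found in the windows of CDKN1B (1 time), CDKN2D (2 times) and CCND3 (5 times), but not in that of CDKN2C, which held an E-box, CACGTG, present in 6.34% of windows. None of the 7 windows held the CRE TGACGTCA (1.65% of windows), the AP-1 motif TGACTCA (4.20%), the FOX motif TGTTTAC (2.98%), either E2F motif TTTGGCGC (0.550%) or TTTCCCGC (1.39%), or the CHR motifs TTTGAA (13.3%) and TTCGAA (1.19%). These are letter matches in short windows and say nothing of binding. The CCND3 and CDKN2C windows lie far upstream of the start of the transcript that carries most of the gene's level, and the CDKN1B window lies almost wholly inside its leading transcript. All 250 bases of the CCND3 window lie in annotated exons of CCND3.

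**Figure D1:**
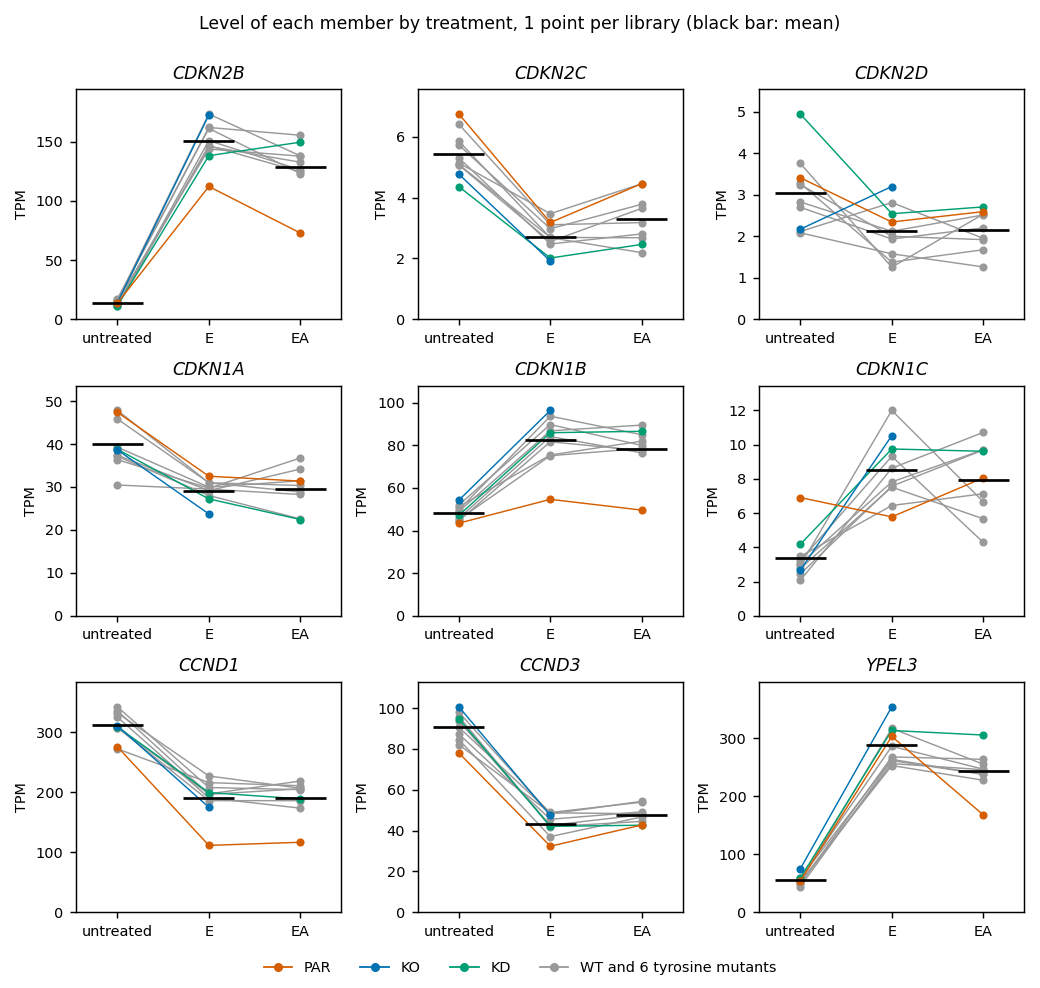
Level of 9 members (TPM, vertical axis from 0) in untreated, E and EA libraries, with 1 point per library, lines joining the libraries of 1 cell line and black bars at the mean. CDKN2B and YPEL3 with E lay above every untreated library, CCND1, CCND3 and CDKN2C lay below every untreated library, and PAR with E was lowest for CDKN1B (54.7 TPM) and CCND1 (112 TPM).

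All 6 members averaging 10 TPM or more passed the threshold for E against untreated (limma, adjusted p under 0.05), 3 of them higher and 3 lower. This must be read against 79.0% of the 9085 genes tested passing it, 36.4% higher and 42.6% lower. Ranked by the size of the rise over the 9085 genes, CDKN2B was in place 8 and YPEL3 in place 52. The 3 members with means of 1 to 10 TPM, CDKN1C, CDKN2C and CDKN2D, were read from the fit on the 14111 genes averaging 1 TPM or more. All 3 passed there as well, 1 higher and 2 lower, against 71.8% of genes, 35.5% higher and 36.3% lower. In bulk RNA a change in all cells and a change in the share of cells expressing a gene cannot be told apart.

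Among the INK4 inhibitors, CDKN2B rose steeply while CDKN2C and CDKN2D fell from low levels. CDKN2B stood at 11.3 TPM in the lowest, 13.9 TPM in the median and 17.4 TPM in the highest untreated library. With E these values were 112, 149 and 173 TPM, in PAR, at the median and in Y634F. The lowest E library was thus far above the highest untreated library, and the mean rose 10.7-fold, from 14.0 ± 2.2 to 151 ± 18 TPM (SD, n = 10 lines). The difference in log2(TPM + 1) was 3.34 (SE 0.062, limma adjusted p = 1.47e-14), and it ranged from 2.94 in PAR to 3.59 in Y750F. KO went from 14.1 to 173 TPM and KD from 11.6 to 138 TPM, and their changes of 3.52 and 3.46 lay within the range of the other 8 lines. A second gene model on the opposite strand, ENSG00000264545, spans CDKN2B and reached at most 2.43 TPM.

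CDKN2C, the gene of p18 at chr1:50960745-50974633 (plus strand), had 4.36 to 6.74 TPM (median 5.22) in untreated libraries and 1.91 to 3.47 TPM (median 2.69) with E. The groups did not overlap and all 10 lines fell, with a mean difference in log2(TPM + 1) of -0.80 (SE 0.071, limma adjusted p = 2.12e-07). Of the 14111 genes, 17.2% had every E library below every untreated library. CDKN2D, the gene of p19 at chr19:10566462-10569059 (minus strand), went from a mean of 3.06 to 2.12 TPM and was lower in 8 of 10 lines, by -0.38 (SE 0.14, limma adjusted p = 0.0281). KO and Y726F went the other way, at 0.40 and 0.29. This call was lost without KD (adjusted p = 0.0650), Y634F (0.0522), Y643F (0.0686) or Y698F (0.0667), each in the limma fit, so it depended on single lines.

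The 3 CIP/KIP inhibitors moved apart. CDKN1B, the gene of p27 at chr12:12715058-12722371 (plus strand), had 43.5 to 54.3 TPM (median 48.1) in untreated libraries and 54.7 to 96.4 TPM (median 85.1) with E. The groups just separated, since PAR with E (54.7 TPM) lay next to untreated KO (54.3 TPM), whereas the other 9 lines with E were at 75.2 TPM or more. The mean difference in log2(TPM + 1) was 0.75 (SE 0.053, limma adjusted p = 5.76e-09), with 0.32 in PAR and 0.55 to 0.90 elsewhere. All E libraries lay above all untreated ones in 14.9% of the 9085 genes, and CDKN1B, CDKN2B and YPEL3 were the 3 members among them.

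CDKN1A moved the opposite way. It had 30.5 to 47.8 TPM (median 38.7) in untreated libraries and 23.7 to 32.5 TPM (median 29.6) with E. The groups overlapped, but each of the 10 lines fell, as in 32.5% of the 9085 genes. The mean difference in log2(TPM + 1) was -0.43 (SE 0.056, limma adjusted p = 5.54e-06). The smallest change was in WT, at -0.045, from the lowest untreated level of 30.5 TPM, and the largest was in KO, at -0.68. CDKN1C, the gene of p57 at chr11:2883213-2885773 (minus strand), rose from a mean of 3.37 to 8.54 TPM, by 1.15 (SE 0.16, limma adjusted p = 2.02e-05). It rose in 9 lines, by 0.73 in Y643F to 1.72 in Y634F, and in PAR it went from 6.91 to 5.78 TPM, a change of -0.22.

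YPEL3 had 44.2 TPM in the lowest, 53.7 TPM in the median and 74.9 TPM in the highest untreated library. With E it had 253, 277 and 354 TPM. KO was the highest line in both groups and the groups were far apart, with a 5.19-fold rise of the mean from 55.4 ± 8.3 to 287 ± 33 TPM (SD, n = 10 lines). The difference in log2(TPM + 1) was 2.36 (SE 0.041, limma adjusted p = 1.07e-14) and ranged only from 2.15 in Y643F to 2.54 in Y821F. Of its 4 paralogs, YPEL5 alone passed the filter of 10 TPM, and it rose from 23.5 ± 3.2 to 86.2 ± 7.6 TPM, by 1.84 (SE 0.063, limma adjusted p = 2.41e-12) in 10 of 10 lines. YPEL1, YPEL2 and YPEL4 had medians of 3.62, 10.3 and 1.67 TPM over all libraries, and their changes were not examined.

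The expressed D-type cyclins fell. CCND1, at chr11:69641087-69654474 on the plus strand, was the most abundant member, with 273 to 343 TPM (median 310.2) in untreated libraries and 112 to 227 TPM (median 197) with E. No E library reached the lowest untreated one, and the mean difference in log2(TPM + 1) was -0.73 (SE 0.066, limma adjusted p = 1.04e-07). PAR fell most, at -1.30, and the other lines changed by -0.83 in KO to -0.33 in Y750F. CCND1 shares 1399 bases of its span with LTO1 on the opposite strand, a gene with mean levels of 31.3 to 35.0 TPM across treatments, and the use of strand in the quantification is not given in the sources used here.

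CCND3, at chr6:41934933-42050357 on the minus strand, had 78.1 to 101 TPM (median 92.2) in untreated and 32.3 to 48.9 TPM (median 44.1) in E libraries. The groups did not overlap and the mean difference was -1.05 (SE 0.048, limma adjusted p = 4.86e-11), from -1.25 in PAR to -0.74 in WT. CCND1 and CCND3 were the 2 members of at least 10 TPM with every E library below every untreated one, against 21.6% of the 9085 genes. CCND2, at chr12:4273772-4305350 on the plus strand, was listed at 0 in 22 of 29 libraries and reached 0.590 TPM in Y726F with E, the highest value, with the other 6 libraries above 0 at 0.0370 TPM or less. Another gene model on the same strand, ENSG00000285901, spans all of CCND2 and had means of 4.09 to 4.65 TPM, so reads of CCND2 could have been assigned to it. CCND2 was not tested.

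**Figure D2:**
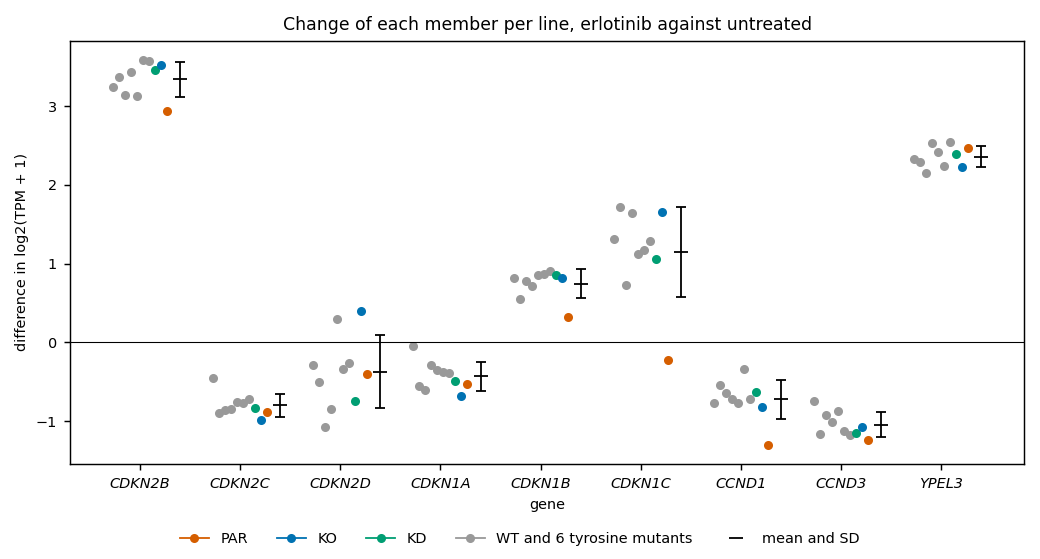
Change with E in each of 10 lines, as the difference in log2(TPM + 1) from the untreated library of the same line (vertical axis), with the mean and SD of the lines beside the points. CDKN2B (2.94 to 3.59) and YPEL3 (2.15 to 2.54) stood far above 0 in every line, and CDKN1C was the member whose PAR value (-0.22) lay across 0 from all other lines.

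The transcripts of each gene showed whether the level rested on 1 isoform. All 3 CDKN2B transcripts rose with E. The coding transcript CDKN2B-201 went from 5.44 ± 1.21 to 59.7 ± 5.5 TPM (SD, n = 10 lines), CDKN2B-202, also coding, from 3.88 ± 1.14 to 34.5 ± 8.1 TPM, and the retained-intron transcript CDKN2B-203 from 4.71 ± 1.21 to 56.5 ± 7.4 TPM. The retained-intron share was 33.4% ± 6.3 of the gene's TPM in untreated and 37.5% ± 2.7 in E libraries. This difference was smaller than the spread of the untreated libraries, and the paired change of the share within lines was not tested. For YPEL3, the coding transcript YPEL3-201 went from 34.6 ± 6.3 to 188 ± 25 TPM, and its share of the gene was 62.3% untreated and 65.2% with E.

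The CCND1 level was mostly the coding transcript CCND1-201, with 217 ± 19 TPM untreated and 136 ± 26 TPM with E, and retained-intron transcripts made up 29.1% ± 4.6 and 27.9% ± 5.9. CCND3 was different. CCND3-203, which starts at chr6:41941848, fell from 78.2 ± 6.3 to 30.3 ± 5.4 TPM, and its share of the gene went from 86.4% (80.1% to 89.8%) to 69.3% (57.6% to 78.0%), ranges that did not overlap. The coding transcripts CCND3-202 and CCND3-205 start far upstream, at chr6:42048968 and chr6:42048894, and were chosen after their values were seen. They went from 0.49 to 2.56 TPM and from 0.59 to 2.22 TPM, with CCND3-205 still at 0 in 1 E library. CCND3-202 was at 0 in 5 untreated libraries. The coding transcripts with upstream starts did not all rise. The one starting at chr6:42048708 fell from a mean of 1.94 to 0.93 TPM, and the one at chr6:42050357 from 0.27 to 0.19 TPM. The remaining upstream coding transcripts rose but stayed below 1 TPM on average. A move to upstream starts was not tested. In CDKN1A, CDKN1B and CDKN1C the single transcripts CDKN1A-201, CDKN1B-201 and CDKN1C-204 held 80.2% to 94.6% of the gene level on average in each treatment.

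**Figure D3:**
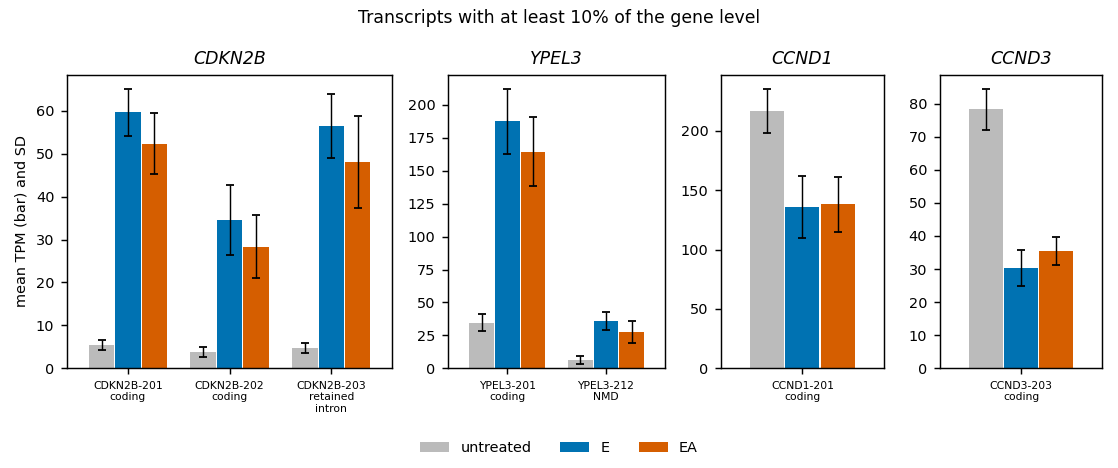
Mean TPM (bars, from 0) and SD over lines of the transcripts with at least 10% of the gene level, for CDKN2B, YPEL3, CCND1 and CCND3 in untreated (n = 10), E (n = 10) and EA (n = 9) libraries. The 3 CDKN2B transcripts rose together, from 3.88 to 5.44 TPM untreated to 34.5 to 59.7 TPM with E.

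Summed TPM was compared between the 6 inhibitors and 3 D-type cyclins among the members. The sums leave out other CDK inhibitor genes, with which the ratios would be much lower, so they do not give the overall balance of cyclins and inhibitors in the cells. The 6 inhibitors together had 106 to 130 TPM (129.8 in Y643F the highest) in untreated and 211 to 308 TPM in E libraries, and the 3 D-type cyclins had 354 to 441 TPM and 144 to 264 TPM. The ratio of these cyclins to these 6 inhibitors was 3.55 ± 0.39 (SD, n = 10) in untreated libraries, from 2.91 in PAR to 4.16 in Y698F. With E the ratio was 0.849 ± 0.096 (SD, n = 10), from 0.683 in PAR to 0.971 in Y698F. The ratio was lower with E in every line, and within the 6 inhibitors most of the gain was CDKN2B. With EA the ratio was 0.956 ± 0.10 (SD, n = 9), from 0.766 in WT to 1.10 in Y643F.

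**Figure D4:**
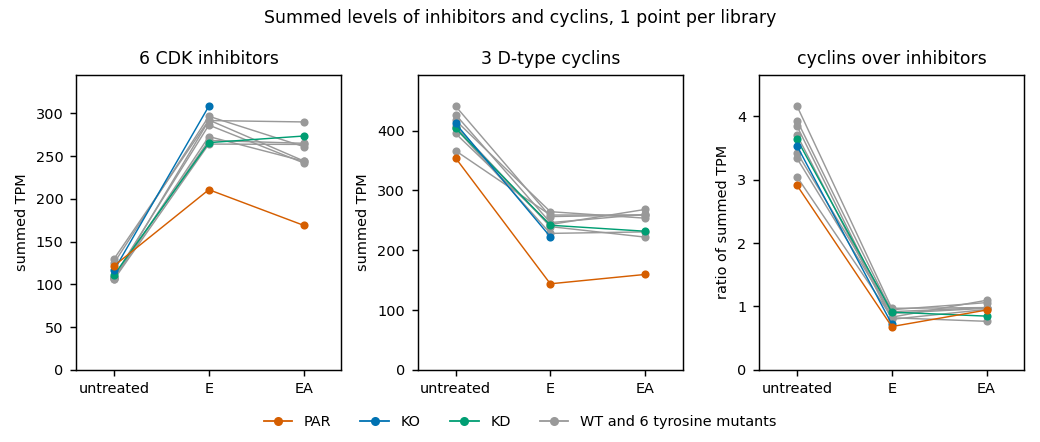
Summed TPM of 6 CDK inhibitors and of 3 D-type cyclins, and the ratio of cyclins to inhibitors, with 1 point per library and lines joining the libraries of 1 cell line (axes from 0). The ratio was 2.91 to 4.16 in untreated libraries and 0.683 to 0.971 with E, for these 9 genes and without other CDK inhibitor genes.

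AF154 added to E moved the members far less. The comparison used the 8 lines other than KO and KD and reuses the E libraries of the comparison above, so the changes are not independent of it. All of these lines but PAR were transduced lines in which most cells lacked AXL. The part of this mixture in the sizes of change was not tested. Of the 6 members tested, 1 passed the threshold (limma, adjusted p under 0.05), CDKN2B, against 2.36% of the 9085 genes, 1.88% higher and 0.473% lower. None of the 3 low members passed in the fit of 14111 genes, where 0.475% of genes did, and none had an unadjusted p under 0.05.

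CDKN2B with EA had 72.9 TPM in PAR, 155 TPM in WT, 138 TPM in Y634F, 123 TPM in Y643F, 133 TPM in Y698F, 138 TPM in Y726F, 125 TPM in Y750F and 126 TPM in Y821F. Each was below the E library of its line, with changes from -0.059 in WT to -0.62 in PAR on the log2(TPM + 1) scale, though the groups overlapped. The mean fell from 149.5 ± 18.2 to 126 ± 24 TPM (SD, n = 8 lines), with a difference of -0.26 (SE 0.057, limma adjusted p = 0.0410). In KD, which was left out of the fit, CDKN2B went from 138 to 149.6 TPM, a change of 0.11. The call was lost on leaving out PAR (-0.21, adjusted p = 0.0767), Y634F (0.114), Y643F (0.0991), Y698F (0.0692), Y750F (0.0763) or Y821F (0.0718) in turn, and kept without WT or Y726F. A lower EA level in all 8 lines, seen for CDKN2B and YPEL3, occurred in 1.55% of the 9085 genes.

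YPEL3 was lower with EA than with E in 8 of 8 lines and did not pass the adjusted threshold. Its mean went from 276 ± 24 to 235 ± 29 TPM (SD, n = 8), a difference of -0.24 (SE 0.075, limma adjusted p = 0.109). PAR went from 303 to 168 TPM (-0.85), and the other 7 lines changed by -0.31 in Y821F to -0.022 in Y726F. Mitochondrial transcripts in PAR were high with E, as given above, and their part in this value was not tested. KD changed by -0.036.

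CCND3 went from 43.1 ± 6.0 to 48.4 ± 4.1 TPM and was higher in 7 of 8 lines, with WT at -0.013 as the exception, and did not pass either (0.17, SE 0.049, limma adjusted p = 0.0835). CCND1 (-0.0062, SE 0.038), CDKN1A (0.0060, SE 0.064) and CDKN1B (-0.053, SE 0.043) did not pass, with limma adjusted p of 0.944, 0.968 and 0.50 for these differences in log2(TPM + 1). CDKN1A varied more between the lines with EA, from 22.4 TPM in KD and 22.6 TPM in Y821F to 36.7 TPM in Y698F, than with E. The low members CDKN1C (-0.08, SE 0.16), CDKN2C (0.16, SE 0.095) and CDKN2D (0.08, SE 0.12) had limma adjusted p of 0.841, 0.429 and 0.793.

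**Figure D5:**
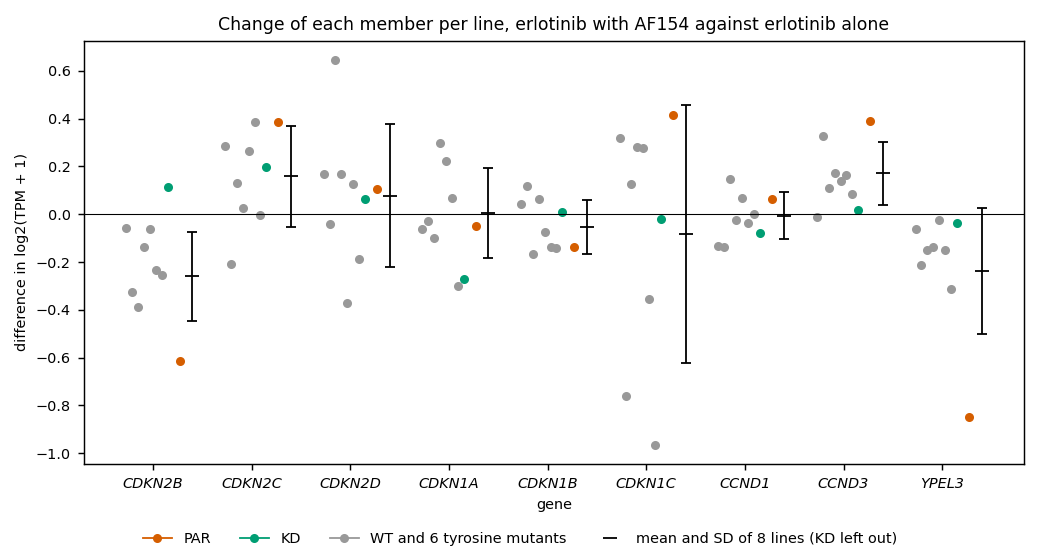
Change with EA against E in each of 9 lines, as the difference in log2(TPM + 1) (vertical axis), with the mean and SD of the 8 lines other than KD. All 8 lines lay below 0 for CDKN2B and YPEL3, with PAR lowest at -0.62 and -0.85, and KD was above 0 for CDKN2B.

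Over the 27 libraries of the 9 lines with all 3 treatments, treatment took 97.8% of the sum of squares of log2(TPM + 1) for YPEL3, 97.7% for CDKN2B and 91.6% for CCND3. It took 76.0% for CDKN1B, 74.0% for CDKN2C, 68.8% for CDKN1C, 68.6% for CCND1, 55.7% for CDKN1A and 39.6% for CDKN2D. Within the 18 E and EA libraries the order was different. There the line took 97.2% for CCND1 and 94.0% for CDKN1B. Once PAR was left out it took 76.6% for CCND1, 73.4% for CDKN2C and 66.8% for CDKN1B. For CCND3 and YPEL3 it then took 65.6% and for CDKN1A 65.2%. Leaving out PAR moved the line share of CDKN2B from 68.7% to 30.8% and that of YPEL3 from 38.4% to 65.6%. The shares of CCND1, CDKN1B and CDKN2B thus rested in part on PAR. These are shares of each gene's own variation, not sizes of difference. With so few libraries per line, the line takes a large share even where lines do not differ. The share over all genes was not computed.

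Genes around the members, from lists drawn up with earlier results of these data known, moved with E as follows. Of 20 tested genes of the CDK core (23 listed: partner cyclins, CDKs, retinoblastoma proteins and their regulators), 3 rose, 16 fell and 1 did not pass, with a median of -0.73 against -0.037 for all genes. Among all 9085 genes 79.0% passed, 36.4% higher and 42.6% lower. E2F1 fell from 35.4 ± 2.8 to 5.12 ± 1.39 TPM (-2.61), CCNE1, the cyclin partner of CDK2, from 21.5 ± 2.1 to 4.95 ± 1.77 TPM (-1.95), and PKMYT1, a CDK1-inhibiting kinase, from 78.7 ± 8.7 to 20.2 ± 3.8 TPM (-1.93). RBL2, the pocket protein p130, rose from 39.7 ± 2.5 to 65.8 ± 6.8 TPM (0.71). WEE1, which phosphorylates CDK1 at its inhibitory tyrosine, went from 19.9 ± 1.4 to 23.0 ± 3.9 TPM (0.18). It rose in 8 of 10 lines and passed narrowly (limma adjusted p = 0.0464).

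Of 12 tested genes of CIP/KIP and cyclin D turnover (14 listed), 3 rose and 7 fell (median -0.27), a share passing near the 79.0% of all genes. The fallers were led by DTL, a receptor of the ubiquitin ligase that degrades p21, from 32.3 ± 4.6 to 3.65 ± 1.31 TPM (-2.88). SKP2 and CKS1B, which together recognise p27 for degradation, went from 45.9 ± 5.7 to 17.1 ± 2.2 TPM (-1.37) and from 265 ± 9 to 112 ± 14 TPM (-1.25). AMBRA1, which targets D-type cyclins for degradation, rose from 20.7 ± 2.5 to 27.9 ± 4.4 TPM (0.41), in 9 of 10 lines. RNF123, a p27 ubiquitin ligase subunit, rose by 0.28 in 10 of 10 lines. GSK3B, a cyclin D1 kinase, rose by 0.15, in 7 of 10 lines (limma adjusted p = 0.0153).

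Of 15 tested transcriptional regulators of the members (19 listed), 6 rose and 6 fell (median 0.046), again near the 79.0% of all genes. FOSL1, an AP-1 subunit, fell from 223 ± 20 to 18.3 ± 4.7 TPM (-3.58), and MYC (-1.14) and KLF4 (-0.68) fell too. FOXO4, of the FOXO factors that PI3K signaling restrains, rose from 5.64 ± 1.37 to 16.9 ± 2.9 TPM (1.44), and BCL6, a transcriptional repressor, rose by 0.76.

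With EA against E, 6 of 20 CDK core genes rose and none fell (median 0.12 against 0.016 for all genes), where 1.88% of all genes rose and 0.473% fell. They were led by E2F1 from 5.42 ± 1.40 to 8.37 ± 1.79 TPM (0.56, SE 0.13, limma adjusted p = 0.0475), CDK1 (0.38) and CCNA2 (0.33). None of the turnover, regulator and YPEL genes passed in limma. An unadjusted p under 0.05 was reached by 6 of 12 turnover genes, 4 of 15 regulators and 0 of 1 YPEL gene, against 20.9% of all genes. The count of all genes that passed ranged from 10 to 188 when 1 line was left out, against 214 with all 8 lines.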

How the data were processed

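Poly(A) RNA of 29 PC9 libraries was sequenced on an Illumina NovaSeq. Per the submitters' processing notes kallisto and GRCh38 were used; the version, annotation and strand setting are not given in the sources used here. The authors deposited TPM values per transcript, with no counts, so depth per library is unknown. Here 169797 of 188753 transcripts matched GENCODE 29 by identifier (97.0% to 97.4% of TPM) and were summed to 35579 genes.

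Genes averaging 10 TPM or more (9085) were tested on log2(TPM + 1) with limma 3.58.1 in R 4.3.3, with the cell line as a block, for E against untreated (10 lines) and EA against E (8 lines, without KD and KO). Adjusted p-values are Benjamini-Hochberg over all genes tested. Members with means of 1 to 10 TPM were read from the same fit at a mean of at least 1 TPM (14111 genes). A gene with a mean below 1 TPM was not tested. Fold changes are ratios of mean TPM, and log2 differences are on the log2(TPM + 1) scale, which understates the change of low genes. The fit was tested on simulated data. Alternatives were a pseudocount of 0.1, other filters, library centring, quantile normalization, no block, array quality weights, protein-coding transcripts only, the KD pair and leaving out each line. Removal of mitochondrial genes, and the alternatives at 1 TPM, were added after seeing the data. Labels give no replicate numbers, and pairs were made by cell line.

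The members and lists were chosen with earlier results of these data known. Named genes were all members, the 3 largest rises and falls past the threshold in each list and, for each member tested at 10 TPM, the 3 genes with the highest Pearson r; some genes that the rule selects, and 1 list, are not reported here. No sequences of proteins were used here.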

Additional observations from a re-analysis of the deposited data

Results flagged for a closer look

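Dixon's test for a lone extreme library was run on 45 groups (the level of 9 members in each treatment and their change per line in both comparisons) and flagged 11, against 2.25 to be reached by chance at 1 in 20. PAR gave 9 of them. The groups share libraries and the changes are differences of the same levels, so the flags are not independent of each other. CDKN1B in PAR was at 54.7 TPM with E, the other lines at 75.2 to 96.4 TPM, and at 49.6 TPM with EA, the others at 76.5 to 89.5 TPM. CCND1 in PAR was at 112 TPM with E (others 175 to 227 TPM) and 117 TPM with EA (others 174 to 219 TPM), and its change with E in log2(TPM + 1) was -1.30 (others -0.83 to -0.33). CDKN2B in PAR with EA was at 72.9 TPM (others 123 to 155 TPM), and the YPEL3 change with EA was -0.85 (others -0.31 to -0.022). Untreated PAR had 6.91 TPM of CDKN1C (others 2.07 to 4.18 TPM), and its change with E was -0.22 (others 0.73 to 1.72).

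Beside these values, PAR was below all other lines in 24.6% of the 9085 genes untreated, 37.6% with E and 31.2% with EA. The other 2 flags were the CDKN2C change with E in WT, -0.46 against -0.98 to -0.72 in the other lines, and YPEL3 in untreated KO, 74.9 TPM against 44.2 to 59.0 TPM.

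In the following cases 1 line moved against all others. CDKN1C with E went down in PAR (-0.22) and up in the other 9 lines. CDKN2B with AF154 added went up in KD (0.11) and down in the other 8 lines (-0.62 to -0.059). CCND3 with AF154 added went down in WT, by only -0.013, and up in the other 8 lines (0.019 in KD to 0.39 in PAR). Dixon's test flagged the CDKN1C change, as given above, and did not flag the CCND3 change. Beyond that these differences were not tested, and each rests on 1 line with 1 library per treatment.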

How the results depend on the processing

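For E against untreated, 180 alternative values of the 9 tested members kept their direction and 175 kept their side of the threshold. The exceptions were CDKN2D without a filter (adjusted p = 0.0637, more genes tested) and without KD, Y634F, Y643F or Y698F (-0.36 to -0.30), given in the report. The count of members past the threshold was 6 to 9.

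For EA against E, the single call, CDKN2B, became 0 calls under a mean of at least 1 TPM, at least 10 TPM in any library, no filter on low values, no block by cell line (adjusted p = 0.453) and with the KD pair included. Leaving out 1 line gave 0 to 1 calls. The limma adjusted p of CDKN2B ranged from 0.0273 to 0.453 over 20 alternatives and was under 0.05 in 9. Pairing by line was part of the design, and without the block 6 members passed for E against untreated and 214 called genes became 9 for EA against E. Changes near 0 turned sign: CDKN1A to -0.010 (libraries centred), -0.016 (quantile normalization), -0.011 (protein-coding transcripts) and -0.025 (KD pair included), and CCND1 to 0.0094 (quantile normalization), 0.048 (protein-coding transcripts) and 0.0082 (mitochondrial genes removed). Leaving out 1 line gave -0.036 to 0.050 for CDKN1A, -0.028 to 0.012 for CCND1, -0.15 to 0.044 for CDKN1C and -0.0040 to 0.14 for CDKN2D. No scaling moved the median of all genes by over 0.1. With 1 library per line and treatment, the response of a single line has no replicate, and TPM without counts gives no depth for the members below 10 TPM.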

Other observations

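The genes most like each member were sought by Pearson r of log2(TPM + 1) over the 29 libraries after the mean of each treatment was subtracted. The points share lines, and PAR sets much of the spread, so r over the 26 libraries without PAR is given second. CDKN2B was most like SOX4, a transcription factor gene (0.90 and 0.77), followed by FRAS1 (0.83 and 0.55) and BCAM (0.81 and 0.57). CDKN1B was most like GPRC5A (0.90 and 0.75) and DDX47 (0.90 and 0.72), both on chromosome 12, then SPECC1 (0.89 and 0.62). GPRC5A and DDX47 lie within 1000000 bases of CDKN1B. This window was chosen after the likeness values were seen. Of the 10 genes in it with a mean of at least 10 TPM, PAR with E was below all other lines in 6, against 37.6% of all genes. The 6 include CDKN1B itself and GPRC5A and DDX47, which were picked for their likeness to it. The others were MANSC1, DUSP16 and RPL13AP20. The count is therefore not independent of that choice, and a local excess was not tested.

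CCND1 was most like ANKRD1 (0.93 and 0.70), with CTPS1 (0.92 and 0.46) and GPR176 (0.92 and 0.46) much less alike without PAR. CCND3 was most like CDCA5 (0.82 and 0.64), TLNRD1 (0.80 and 0.62) and CCT6A (0.78 and 0.57). CDKN1A and YPEL3 kept most of their likeness without PAR. For CDKN1A, HES4 (0.80 and 0.78) and MELTF (0.79 and 0.79) were among the 3 genes most like it. YPEL3 was most like the linker histone gene H1-2 (0.81 and 0.79), CITED2 (0.71 and 0.66) and FTH1 (0.71 and 0.68).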
